A study of Homo sapiens with 9 samples.

Results

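Interferon-stimulated genes are genes whose transcription rises when a cell senses interferon. A list of 37 of them, headed by BST2, was read in control Huh-7 cells and in knockout clones of the same line. The members were chosen by gene symbol from a fixed list, and all 37 were found among the 58735 genes of the count table. The question was whether BST2 moved with the other members or apart from them. In Ako-3 cells BST2 moved apart from most of them. It was 15.2-fold higher than in control cells, while the median log2 fold change (log2FC) of the 29 other tested members was -0.15. At an adjusted p of at most 0.05, 6 of these were higher, among them SP100 and IFITM3. Another 9 were lower, among them ISG15, HERC5 and IFITM1. Of all genes tested, 25.5% were higher and 24.4% lower at this threshold.

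Huh-7 is a human hepatoma line, and the control group was unedited Huh-7 cells (labelled WT). Ako-3 is a Huh-7 clone in which APOB, the gene of the structural protein of secreted lipoproteins, was knocked out with CRISPR/Cas9. Mko-3 is a Huh-7 clone with a knockout of MTTP, the gene of the transfer protein that loads lipid onto apoB. Each group had 3 libraries of poly-A RNA, 9 in all, and all cells were kept overnight in medium without serum before RNA was taken. No interferon, virus or other inducer is named in the labels, so the levels are those of cells that were not stimulated on purpose. Each knockout is 1 clone, so a difference between a clone and control cells that the targeted gene does not cause cannot be told apart from the knockout. The labels call the libraries biological replicates without naming separate cultures, and p-values measure only the spread between these libraries.

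Type I and type III interferons bind receptors at the cell surface and activate the kinases JAK1 and TYK2. STAT2 and IRF9 then act in the complex ISGF3, which binds the interferon-stimulated response element in the promoters of interferon-stimulated genes. Many of the products act against viruses, and hepatocytes respond to both kinds of interferon. BST2, also called tetherin, is a membrane protein that holds enveloped virus particles at the surface of the cell that made them, and it is itself an interferon-stimulated gene.

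The libraries held 14638727 to 20179760 counts on genes, so that 3 counts, the floor used below, are worth 0.149 to 0.205 CPM (counts scaled to a common library size) in a library. CPM were scaled with TMM factors of 0.970 to 1.05. APOB was at 2688 to 3878 CPM in control libraries, 1259 to 1421 CPM in Ako-3 and 3119 to 3412 CPM in Mko-3 libraries, and MTTP at 604 to 664, 542 to 600 and 83.0 to 90.8 CPM, each lowest in the clone whose label names it. All 12 hepatocyte markers were tested, and their summed FPKM were 5395 to 5577 in control, 6492 to 6823 in Ako-3 and 5216 to 5466 in Mko-3 libraries. Of 12 leukocyte and plasmacytoid dendritic cell markers, 7 never exceeded 3 counts in a library, among them the defining genes PTPRC, CD3E, CLEC4C and LILRA4. The summed FPKM of this list, which LYZ dominates, were 151 to 164 in control, 187 to 204 in Ako-3 and 189 to 202 in Mko-3 libraries. Endothelial and stromal markers summed to 11.4 to 13.0, 15.3 to 16.5 and 8.52 to 9.08 FPKM, and mitochondrial genes took 5.52% to 6.17%, 7.06% to 7.40% and 5.75% to 5.82% of the counts. These values moved with the groups, and their part in the results below was not tested.

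BST2 (ENSG00000130303) lies on the minus strand of chromosome 19, at chr19:17402939-17405648 in the hg38 coordinates of the files, and has 5 exons in its MANE transcript. Its raw counts were 34, 12 and 19 in control libraries 1 to 3, 278, 416 and 335 in Ako-3 libraries, and 69, 29 and 33 in Mko-3 libraries. As CPM these are 1.83, 0.793 and 1.06 in control libraries, 17.0, 21.2 and 19.4 in Ako-3 libraries, and 3.91, 1.66 and 2.16 in Mko-3 libraries. The Ako-3 libraries lay far above all others, whereas the Mko-3 and control libraries overlapped, since the highest control library was above the lowest Mko-3 library.

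The group means of BST2 were 1.23 ± 0.539 CPM (control), 19.2 ± 2.11 CPM (Ako-3) and 2.58 ± 1.18 CPM (Mko-3), with SD and n = 3 for each. In Ako-3 cells BST2 rose by a log2FC of 3.93 (SE 0.20, adjusted p = 3.8e-12, edgeR's quasi-likelihood F test, adjusted after Benjamini-Hochberg over all genes tested). Only 4 of the 15787 genes tested had a larger log2FC, so that BST2 ranked 5 from the top. Leaving out each library in turn gave 3.72 to 4.34. In these bulk libraries, more cells that make a transcript and more of it in each cell cannot be told apart.

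In Mko-3 cells BST2 was higher than in control cells by a log2FC of 1.04 (SE 0.35, adjusted p = 1.8e-02), just past the threshold of 1 used for a call. It rested on few counts, and the call was lost without control replicate 2 (0.84, adjusted p = 4.3e-02), without control replicate 3 (0.93, adjusted p = 8.2e-02) and without Mko-3 replicate 1 (0.60, adjusted p = 2.0e-01). Compared directly, BST2 was 7.42-fold lower in Mko-3 than in Ako-3 cells, with a log2FC of -2.89 (SE 0.17, adjusted p = 2.7e-15).

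On the deposited FPKM, which are per gene length, BST2 was at 1.08 ± 0.476 (control), 16.9 ± 1.84 (Ako-3) and 2.28 ± 1.05 (Mko-3), with SD and n = 3 for each. By mean FPKM it was the 20th of the 37 members in control cells, the 3rd in Ako-3 cells and the 14th in Mko-3 cells. In Ako-3 cells only IFITM3, at 120 ± 0.979 FPKM, and IFI6, at 22.2 ± 0.539 FPKM (SD, n = 3 each), stood above it. ISG15 followed at 15.2 ± 0.974 FPKM, and the libraries of BST2 and ISG15 overlapped there on this scale.

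**Figure D1:**
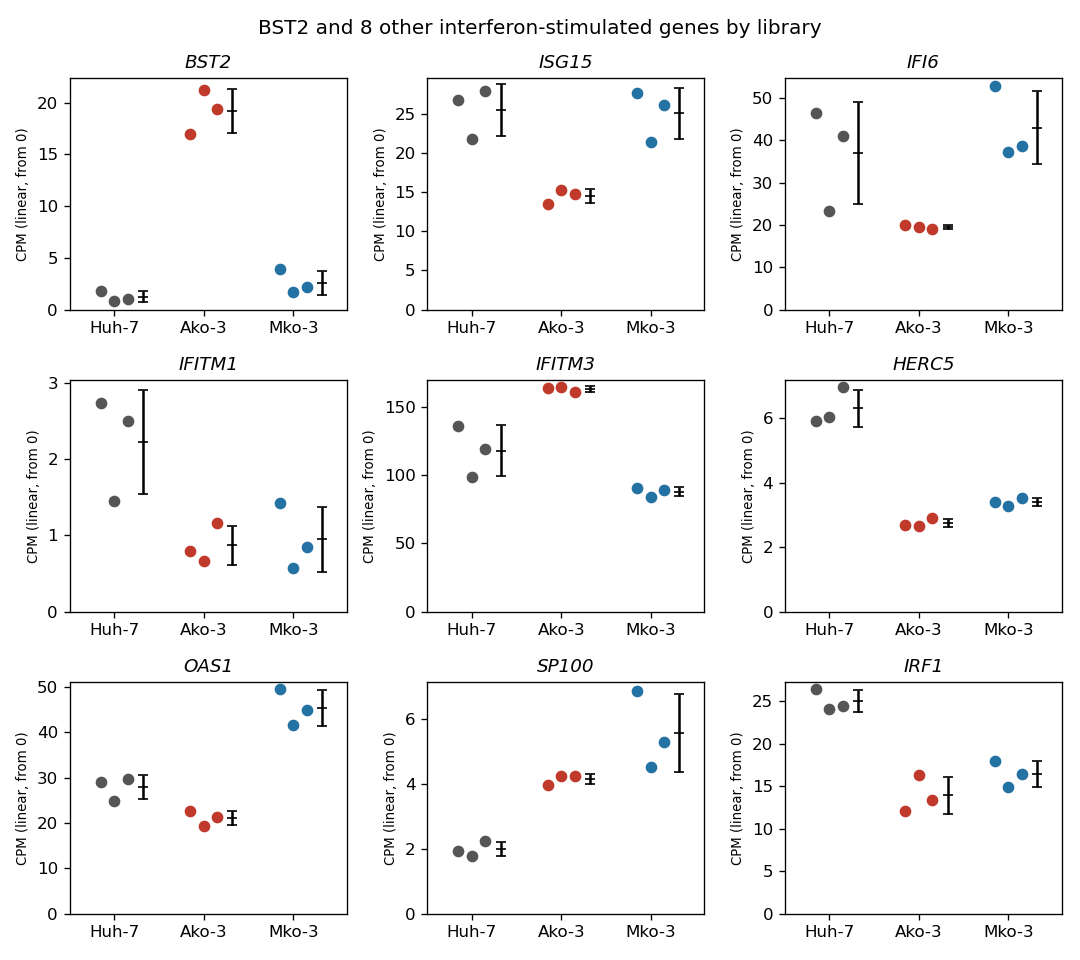
Level of BST2 and of 8 other interferon-stimulated genes in each of the 9 libraries, on linear axes of CPM that start at 0, with 1 point per library and a black bar for the group mean and SD beside the points. The 3 Ako-3 libraries of BST2 sit between 17.0 and 21.2 CPM, above all control and Mko-3 libraries. IFITM3 is also highest in Ako-3 cells, while ISG15, IFI6, HERC5 and OAS1 are lowest there. The means of IRF1 and IFITM1 are lowest there too, but their Ako-3 and Mko-3 libraries overlap.

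The nearest annotated start site to that of BST2 belongs to BISPR (ENSG00000282851), a long noncoding RNA on the plus strand that starts 38 bases away and runs in the other direction. It overlaps MVB12A on the same strand, so its reads cannot be assigned with certainty. BISPR had 7, 1 and 5 counts in control libraries, 18, 16 and 18 in Ako-3 libraries and 8, 7 and 7 in Mko-3 libraries. Every Ako-3 library lay above every other library. Its log2FC in Ako-3 cells was 1.94 (1.55 to 2.39 with each library left out), given as a description only, since BISPR reached the minimum count only through the Ako-3 libraries in which it is high. It was not tested between Mko-3 and control cells.

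MVB12A, a subunit of the ESCRT-I sorting complex, starts 74 bases from BST2 on the plus strand and was read deeply, at 37.2 to 45.0 CPM in control, 42.6 to 44 CPM in Ako-3 and 33.6 to 35.3 CPM in Mko-3 libraries. Its log2FC in Ako-3 cells was 0.08 (adjusted p = 4.4e-01). Of the 19 genes at least partly within 100 kb of BST2, 9 were tested in Ako-3 cells, and their median log2FC was 0.08. The genes called besides BISPR were SLC27A1, a fatty acid transporter, and the overlapping lncRNA AC010618.3, both lower at -1.12. These overlap on opposite strands, and AC010618.3 was at -0.98 without control replicate 1. Of the others, DDA1 and ABHD8 were higher and ANO8 lower at the adjusted p alone, at log2FCs of 0.29, 0.32 and -0.29. Over all genes tested 3.52% were called higher and 5.00% lower in Ako-3 cells. In Mko-3 cells SLC27A1 and AC010618.3 were also called lower, at -1.38 and -1.26. DDA1, ABHD8 and ANO8 had log2FCs of 0.38, 0.41 and -0.49 there. No source used here says that strand was kept, but BST2 overlaps no other gene in the files.

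**Figure D2:**
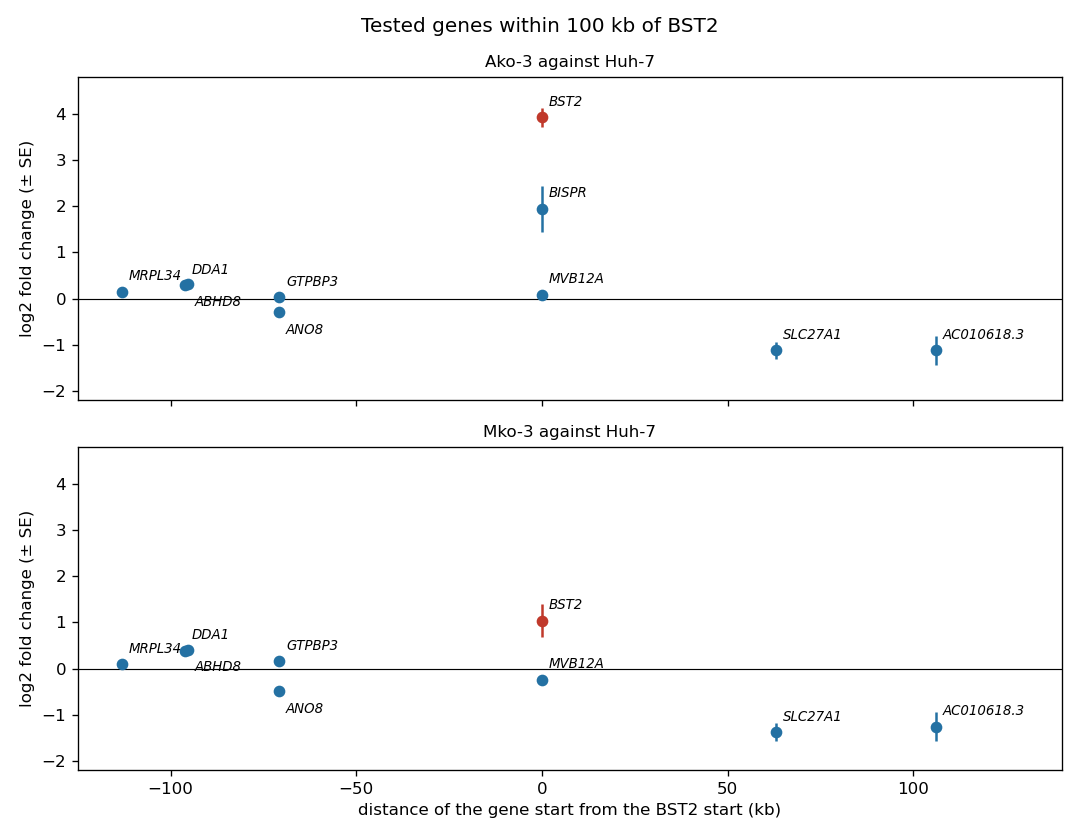
Log2FC against control cells, with bars of 1 SE, of the tested genes that lie at least partly within 100 kb of BST2, by the distance of their start from that of BST2 in kb, for Ako-3 (upper) and Mko-3 cells (lower). In Ako-3 cells BST2 is at 3.93 and MVB12A beside it at 0.08, and BISPR, at 1.94, is shown only because the Ako-3 libraries carried it over the minimum count.

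The promoters were searched for the core letters of the sequence that ISGF3 binds, and binding was not measured. A window of 250 bases before to 50 bases after the start was found in RefSeq (GRCh38.p14) for 28 of the 37 members, and IFIT2, IFITM2, MX2, OAS2, OASL, IRF7, DDX58, USP18 and TRIM22 had none. The core GAAANNGAA of the interferon-stimulated response element, searched on both strands, was present in 19 of the 28 windows (67.9%) and in 8.11% of all 35116 promoter windows of the same length. The core TTCNNNGAA of the gamma-activated site, the element through which interferon gamma acts, was present in 8 of the 28 (28.6%) and in 7.66% of all windows. BST2 held 2 overlapping matches to the first core and 2 to the second, 1 of which overlaps the first core. For BST2 and for 6 members that moved in other ways or by less, 30 bases are shown, with the matches to the first core that lie in them in capitals and those on the other strand as their reverse complement. Where a window held several separate matches, the stretch with the most overlapping ones, or else 1 of them, was taken, so IFI6, HERC5, IFITM1, IFITM3 and OAS3 hold further matches that are not shown.
BST2: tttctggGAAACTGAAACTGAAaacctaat
ISG15: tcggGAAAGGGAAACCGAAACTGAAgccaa
IFI6: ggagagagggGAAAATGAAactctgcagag
HERC5: ttacagtTTCCTTTTCCTTTTCgattccgc
IFITM1: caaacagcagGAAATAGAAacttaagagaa
IFITM3: caaatgccagGAAAAGGAAactgttgagaa
OAS3: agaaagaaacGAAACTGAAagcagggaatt
These stretches are chr19:17405738-17405767 (minus) for BST2, chr1:1013380-1013409 (plus) for ISG15, chr1:27672329-27672358 (minus) for IFI6, chr4:88456988-88457017 (plus) for HERC5, chr11:313990-314019 (plus) for IFITM1, chr11:320893-320922 (minus) for IFITM3 and chr12:112938321-112938350 (plus) for OAS3. The stretch of BST2 lies 137 to 108 bases before its start in RefSeq, which differs from the start used above for BISPR and MVB12A. The core was therefore present in BST2 and IFITM3, which rose in Ako-3 cells, IFITM3 by less. It was also present in ISG15, IFI6, HERC5 and IFITM1, which were lower there, and in OAS3, which did not pass the adjusted p. SP100, PARP9, STAT2, HERC6 and XAF1 had no match to either core in this window, which says only that these letters are not in it.

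In Ako-3 cells, 30 of the 37 members passed the filter on low counts. Of these, 12 were higher and 18 lower than in control cells, the median log2FC being -0.12 beside -0.01 over all genes tested. Past both thresholds, a log2FC of 1 or more in either direction and an adjusted p of at most 0.05, 2 members were higher (BST2 and SP100) and 2 lower (IFITM1 and HERC5). Over all genes tested 3.52% were called higher and 5.00% lower. At the adjusted p alone 7 members were higher and 9 lower, where the shares over all genes were 25.5% and 24.4%. The list without BST2 had 29 tested members and ran from -1.38 for IFITM1 to 1.05 for SP100, so that BST2 lay 2.88 above the highest of them and 4.08 above their median on the log2 scale.

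The same was seen library by library. The log2 CPM of BST2 minus the mean log2 CPM of the 30 other members was -2.09, -2.79 and -2.88 in control libraries, 1.25, 1.64 and 1.58 in Ako-3 libraries and -1.04, -1.91 and -1.70 in Mko-3 libraries. The mean of the other members alone was 2.65 to 3.11 in control, 2.70 to 2.84 in Ako-3 and 2.74 to 3.05 in Mko-3 libraries, so these ranges overlapped. Control replicate 2 had the lowest mean of the 9 libraries. It was also the lowest control library for most of the tested members, among them BST2, ISG15, IFI6, IFI35, IFITM1, IFITM2, IFITM3, OAS1 and IRF9. It was not the lowest for IFIT5, MX2, OAS3, STAT2, HERC5, HERC6 and DTX3L. This library enters every comparison with control cells. Member calls that change when it is left out are given with those members.

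The members whose pattern over the 9 libraries was nearest to that of BST2 were IFITM2, IFITM3 and IFIT1, at Euclidean distances of 4.04, 4.33 and 4.47 between log2 CPM centred on each gene. The distance depends mostly on how far BST2 itself ranged, 4.55 on the log2 scale, and so says little about likeness of shape. Like BST2, IFITM2, IFITM3, MX2 and STAT2 were higher in each Ako-3 library than in any other library, with log2FCs against control cells of 0.61, 0.47, 0.40 and 0.29 beside 3.93 for BST2.

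**Figure D3:**
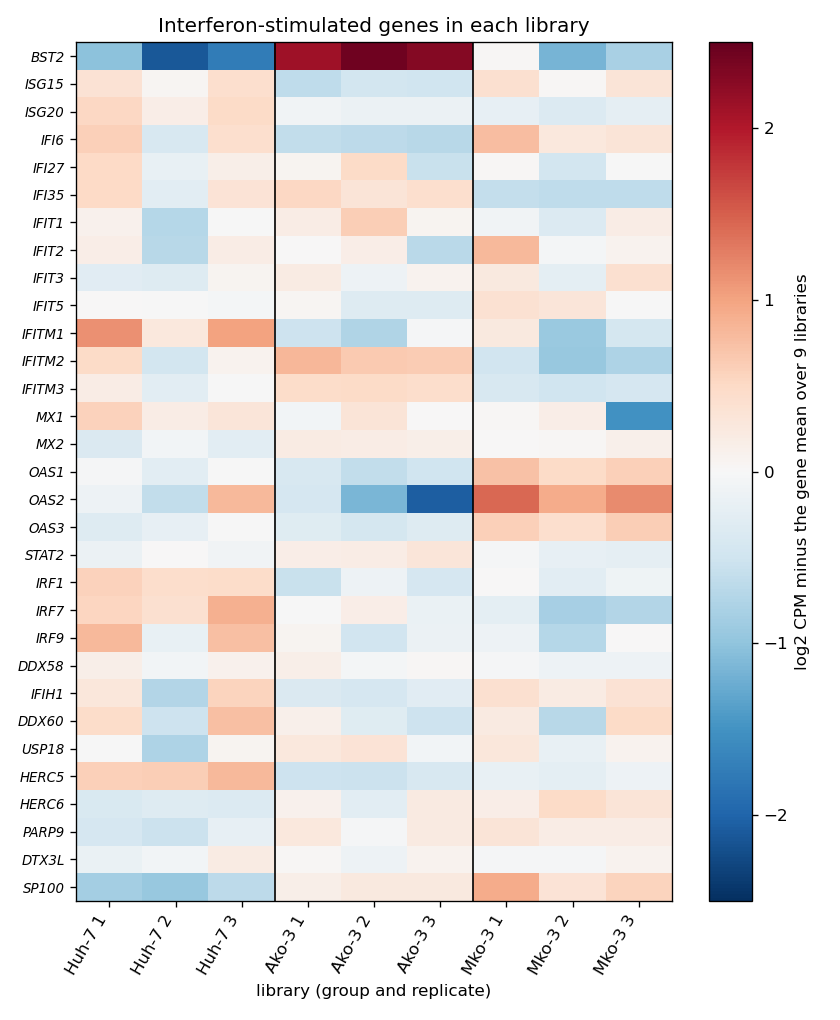
Log2 CPM of each tested member in each of the 9 libraries, centred on the mean of the gene, with genes in rows and libraries in columns. BST2 is high in the 3 Ako-3 libraries (2.11 to 2.43 above its mean), where no other row is coloured as strongly upward.

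Among the members that fell in Ako-3 cells were the ubiquitin-like modifier ISG15 and its ligase HERC5. ISG15 was at 26.7, 21.7 and 27.9 CPM in control libraries, 13.5, 15.2 and 14.8 CPM in Ako-3 libraries and 27.6, 21.4 and 26.1 CPM in Mko-3 libraries. All Ako-3 libraries lay below all others. The log2FC in Ako-3 cells was -0.82 (SE 0.11, adjusted p = 4.1e-06), short of the threshold for a call, and -0.04 (adjusted p = 7.9e-01) in Mko-3 cells. Compared directly, ISG15 was 1.72-fold higher in Mko-3 than in Ako-3 cells (adjusted p = 1.4e-10).

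HERC5, which attaches ISG15 to newly made proteins, was at 5.92, 6.02 and 6.95 CPM in control libraries, 2.69, 2.65 and 2.90 CPM in Ako-3 libraries and 3.40, 3.26 and 3.53 CPM in Mko-3 libraries. The 3 groups did not overlap, and control cells were highest. It fell by 1.20 on the log2 scale in Ako-3 cells (SE 0.18, adjusted p = 1.5e-05) and by 0.90 in Mko-3 cells (SE 0.17, adjusted p = 1.7e-04). Its neighbour HERC6, a related ligase, was called in neither clone, with log2FCs of 0.40 (adjusted p = 2.5e-01) and 0.71 (adjusted p = 3.0e-02). USP18, the protease that removes ISG15 and dampens interferon receptor signaling, had 0.36 in Ako-3 cells (adjusted p = 1.2e-01) and 0.24 in Mko-3 cells (adjusted p = 3.1e-01).

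IFI6, a mitochondrial protein that protects cells from death, was the member of the second highest mean FPKM in every group. Its CPM were 46.4, 23.3 and 41.1 in control libraries, 20, 19.5 and 19 in Ako-3 libraries and 52.9, 37.2 and 38.7 in Mko-3 libraries. Ako-3 cells were lowest, and control and Mko-3 libraries overlapped. The log2FC in Ako-3 cells was -0.94 (SE 0.27, adjusted p = 3.3e-02), and -1.17 (adjusted p = 6.6e-12), past the threshold, without control replicate 2. It was -0.95 to -0.85, with adjusted p of 8.0e-02 to 1.1e-01, without control replicate 3 or without any 1 of the Ako-3 libraries, and -0.74 without control replicate 1. Between the clones it was 2.20-fold higher in Mko-3 cells (log2 1.14, SE 0.11, adjusted p = 5.4e-08), and 0.96 on the log2 scale without Mko-3 replicate 1.

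The IFITM genes, which encode membrane proteins that block the entry of viruses, went in different directions. They lie side by side on chromosome 11 and are similar in sequence, and IFITM1 lies within the bounds that the files give for IFITM2. Reads could thus have been assigned to one or another, so their separate values are uncertain. IFITM1 was at 2.74, 1.45 and 2.5 CPM in control libraries, 0.795, 0.663 and 1.16 CPM in Ako-3 libraries and 1.42, 0.572 and 0.849 CPM in Mko-3 libraries. Control libraries were above those of both clones. It fell by 1.38 on the log2 scale in Ako-3 cells (SE 0.34, adjusted p = 1.9e-03). In Mko-3 cells its fitted log2FC was -1.25, or -0.97 without Mko-3 replicate 2. In that comparison IFITM1 passed the filter only through the control libraries in which it is high, so the value is a description only.

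IFITM2 was at 11.6, 6.02 and 8.79 CPM in control libraries, 14.8, 13.2 and 12.9 CPM in Ako-3 libraries and 5.90, 4.23 and 4.83 CPM in Mko-3 libraries. It was thus highest in Ako-3 and lowest in Mko-3 cells. Its log2FC was 0.61 in Ako-3 cells (SE 0.17, adjusted p = 7.9e-03), -0.84 in Mko-3 cells (SE 0.21, adjusted p = 2.5e-03) and -1.45 between Mko-3 and Ako-3 cells (SE 0.14, adjusted p = 9.0e-15). The value in Mko-3 cells was -1.03 (adjusted p = 9.1e-06), past the threshold, without control replicate 2. It was as little as -0.58 with another library left out. IFITM3, the member of the highest FPKM in every group, had the same order, at 136, 98.5 and 119 CPM in control libraries, 164, 165 and 161 CPM in Ako-3 libraries and 90.6, 84.2 and 89.0 CPM in Mko-3 libraries. The groups did not overlap. Its log2FCs were 0.47 (adjusted p = 3.3e-04), -0.43 (adjusted p = 7.7e-04) and, between the clones, -0.90 (SE 0.05, adjusted p = 6.7e-27).

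SP100, which forms nuclear bodies that silence viral DNA, was the other member called higher in Ako-3 cells. It was at 1.94, 1.78 and 2.22 CPM in control libraries, 3.97, 4.23 and 4.23 CPM in Ako-3 libraries and 6.86, 4.52 and 5.29 CPM in Mko-3 libraries. Both clones lay above control cells. The log2FC was 1.05 in Ako-3 cells (SE 0.21, adjusted p = 3.8e-04), and 0.99 without control replicate 2, and it was 1.47 in Mko-3 cells (SE 0.22, adjusted p = 7.5e-06). PARP9, which modifies host and viral proteins together with DTX3L, also rose in both clones, by 0.52 and 0.61 on the log2 scale (adjusted p = 1.3e-03 and 1.1e-04). DTX3L, whose bounds overlap those of PARP9, was at -0.02 (adjusted p = 9.1e-01) and -0.00 (adjusted p = 9.7e-01).

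**Figure D4:**
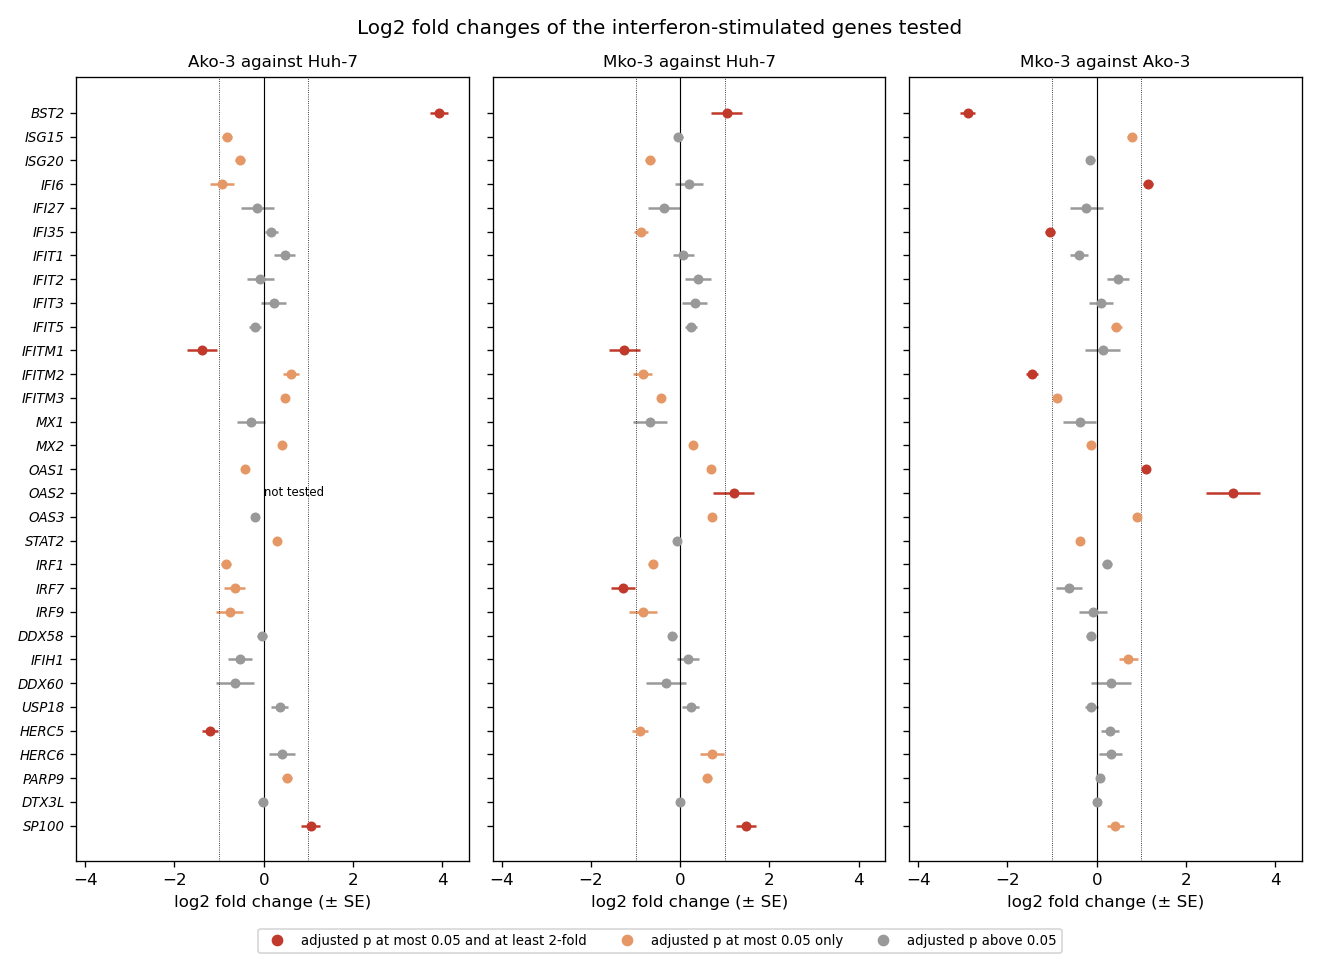
Log2FC of each tested member in the 3 comparisons, with bars of 1 SE, dotted lines at the threshold of 1 in each direction, and colours for members past both thresholds (red), past the adjusted p alone (orange) and past neither (grey). In Ako-3 cells BST2 lies at 3.93 while the other members lie between -1.38 and 1.05.

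In Mko-3 cells, 31 members passed the filter, 15 higher and 16 lower than in control cells. Of these, SP100, BST2 and the rarely read OAS2 were called higher and IRF7 and IFITM1 lower, beside 3.82% and 7.22% over all genes tested. OAS2 and IFITM1 passed the filter only through the group in which they are high, so their calls are a description only. At the adjusted p alone 8 members were higher and 9 lower, where the shares over all genes were 26.9% and 27.1%. The median of the 30 members other than BST2 was -0.02, and BST2 lay 1.06 above it but 0.43 below SP100, so that BST2 did not stand outside the list in this clone. The comparison uses the same control libraries as that of Ako-3 cells, so the values of the clones share the error of these libraries.

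The OAS genes encode sensors of double-stranded RNA that make 2-5A, the activator of RNase L, and they lie side by side on chromosome 12. OAS1 was at 29.1, 24.9 and 29.7 CPM in control libraries, 22.6, 19.4 and 21.2 CPM in Ako-3 libraries and 49.5, 41.6 and 44.9 CPM in Mko-3 libraries. The groups did not overlap, with Mko-3 cells highest. Its log2FC was -0.42 in Ako-3 cells (SE 0.10, adjusted p = 1.5e-03), 0.69 in Mko-3 cells (SE 0.09, adjusted p = 1.9e-06) and 1.11 between Mko-3 and Ako-3 cells (SE 0.08, adjusted p = 9.9e-21).

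OAS3 was at 64.9, 70.7 and 81.1 CPM in control libraries, 65.8, 60 and 65.3 CPM in Ako-3 libraries and 124, 110 and 125 CPM in Mko-3 libraries. Mko-3 cells again lay above both other groups, by a log2FC of 0.71 over control cells (SE 0.08, adjusted p = 2.0e-07) and of 0.90 over Ako-3 cells (SE 0.05, adjusted p = 3.5e-24). OAS2 was read rarely, with 6, 3 and 13 counts in control libraries, 4, 2 and 0 in Ako-3 libraries and 21, 14 and 15 in Mko-3 libraries. It was not tested between Ako-3 and control cells. Its log2FC in Mko-3 cells was 1.20 (SE 0.46, adjusted p = 3.2e-02), a call that was lost with DESeq2 (adjusted p = 1.2e-01) and without control replicate 1 or 2 or Mko-3 replicate 1 or 3 (0.92 to 1.22). Between the clones its fitted log2FC was 3.05, against 6 counts over the Ako-3 libraries. OAS2 passed the filter only through the Mko-3 libraries in which it is high, so that its tests are no support and its fold is uncertain. OASL, a relative without the enzyme activity, had 46 counts over all 9 libraries and was not tested.

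Of the regulators among the members, IRF1 and IRF7 were lower in both clones. IRF1, an activator of interferon-stimulated promoters, was at 26.5, 24.1 and 24.5 CPM in control libraries, 12.1, 16.3 and 13.4 CPM in Ako-3 libraries and 18.0, 14.9 and 16.5 CPM in Mko-3 libraries. Both clones lay below control cells, by log2FCs of -0.85 (SE 0.11, adjusted p = 3.0e-06) and -0.62 (SE 0.10, adjusted p = 2.9e-05). IRF7, which induces interferon genes, was at 3.01, 2.71 and 3.84 CPM in control libraries, 2.02, 2.29 and 1.80 CPM in Ako-3 libraries and 1.70, 1.09 and 1.18 CPM in Mko-3 libraries. Its log2FCs were -0.65 (adjusted p = 2.6e-02, up to 1.5e-01 with a library left out) in Ako-3 cells and -1.28 (SE 0.27, adjusted p = 4.0e-04) in Mko-3 cells.

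For ISGF3, IRF9 had log2FCs of -0.76 (adjusted p = 4.2e-02) in Ako-3 cells and -0.84 (adjusted p = 2.8e-02) in Mko-3 cells, with libraries that overlapped those of control cells. Without control replicate 2, where IRF9 was at 1.45 CPM against 3.01 and 2.89 CPM in the other control libraries, they were -1.01 and -1.08. With another library left out they weakened to as little as -0.59 in Ako-3 cells (without control replicate 1, adjusted p = 1.6e-01) and -0.62 in Mko-3 cells (without Mko-3 replicate 2, adjusted p = 1.4e-01). STAT2 was at 37.9, 42.5 and 39.3 CPM in control libraries, 47.0, 47.8 and 52.1 CPM in Ako-3 libraries and 41.3, 36.5 and 36.0 CPM in Mko-3 libraries, with a log2FC of 0.29 (adjusted p = 4.9e-03) in Ako-3 and of -0.08 (adjusted p = 4.4e-01) in Mko-3 cells.

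Of the remaining members past the adjusted p, ISG20, an exonuclease that degrades RNA, fell in both clones, by 0.54 and 0.67 on the log2 scale (adjusted p = 4.5e-04 and 3.1e-05). IFI35 was at 15.7, 9.25 and 14.1 CPM in control libraries, 15.8, 13.9 and 14.9 CPM in Ako-3 libraries and 7.31, 7.03 and 7.12 CPM in Mko-3 libraries. It was lower in Mko-3 than in Ako-3 cells by 1.05 on the log2 scale (SE 0.12, adjusted p = 2.2e-11) and than in control cells by 0.88 (adjusted p = 1.1e-04), and the last value was -1.06 without control replicate 2. MX2, a dynamin-like protein active against HIV and herpesviruses, was higher by 0.40 in Ako-3 and 0.28 in Mko-3 cells (adjusted p = 1.7e-04 and 4.6e-03). MX1, its relative active against influenza virus, had 195 counts over all libraries and log2FCs of -0.29 (adjusted p = 4.6e-01) and -0.67 (adjusted p = 1.5e-01).

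The IFIT genes, which bind viral RNA lacking the marks of self and are among the genes that interferon induces most strongly, did not pass the adjusted p in either clone. IFIT1 was at 3.71, 2.05 and 3.39 CPM in control libraries, 3.91, 5.30 and 3.59 CPM in Ako-3 libraries and 3.23, 2.69 and 3.92 CPM in Mko-3 libraries, so the groups overlapped. Its log2FCs were 0.47 (SE 0.23, adjusted p = 9.9e-02) and 0.07 (SE 0.24, adjusted p = 8.2e-01). IFIT2, IFIT3 and IFIT5 had log2FCs of -0.08, 0.22 and -0.19 in Ako-3 cells and 0.40, 0.32 and 0.24 in Mko-3 cells. Between the clones IFIT5 was higher in Mko-3 cells by 0.44 (adjusted p = 5.2e-03), with libraries that overlapped. The RNA sensors DDX58 (RIG-I) and IFIH1 (MDA5) did not pass either, with -0.04 and -0.53 in Ako-3 cells and -0.18 and 0.18 in Mko-3 cells, though IFIH1 was higher in Mko-3 than in Ako-3 cells by 0.71 (adjusted p = 3.8e-03). With each library left out, IFIH1 in Ako-3 cells ranged from -0.81 to -0.25, with adjusted p of 3.5e-03 to 5.2e-01. IFI27 and DDX60 had log2FCs of -0.15 and -0.64 in Ako-3 cells, at adjusted p of 7.6e-01 and 2.3e-01.

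Members that interferon is known to raise from near 0 were hardly read. IFI44, IFI44L, RSAD2, XAF1 and TRIM22 had 4, 6, 2, 11 and 14 counts over all 9 libraries together, and neither these nor OASL passed the filter in any comparison. A difference in them was not detectable at this depth. By mean FPKM, 20 of the 37 members were above 1 in control cells, 17 in Ako-3 cells and 17 in Mko-3 cells.

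Compared directly, Mko-3 and Ako-3 cells differed in both directions. Of 31 tested members, IFI6, OAS1 and the rarely read OAS2 were called higher in Mko-3 cells and BST2, IFITM2 and IFI35 lower, where 2.26% and 3.47% of all genes tested were called. At the adjusted p alone 8 members were higher and 6 lower, beside 21.1% and 20.6% of all genes. The median of the members other than BST2 was 0.09, and BST2 lay 2.98 below it.

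The genes upstream of the members were counted on lists of the same pathway. Of 21 interferon genes, 19 had no count in any library and the others had 3 counts in all, so that none was tested. Of 11 genes of the interferon receptors and of JAK-STAT signaling, all were tested and none was called in either clone. In Ako-3 cells 6 of them were lower at the adjusted p and none higher, beside 24.4% and 25.5% of all genes tested, among them IFNLR1, the receptor chain for type III interferon, at -0.54 (adjusted p = 2.3e-05), and IFNGR2 at -0.65 (adjusted p = 7.7e-07). In Mko-3 cells 3 were higher and 5 lower at the adjusted p, beside 26.9% and 27.1% of all genes, with IFNAR1 at 0.27 (adjusted p = 2.6e-03) and IFNLR1 at -0.40 (adjusted p = 3.8e-04).

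Of 18 genes that sense nucleic acids or induce interferon, 13 were tested, 2 were called lower in Ako-3 cells, and 2 lower and 1 higher in Mko-3 cells, where 5.00%, 7.22% and 3.82% of all genes tested were so called. CGAS, the sensor of DNA in the cytosol (listed in the files as MB21D1), had 34, 16 and 21 counts in control libraries, 4, 7 and 4 in Ako-3 libraries and 2, 1 and 0 in Mko-3 libraries. Both clones lay below control cells, by a fitted log2FC of -2.26 in Ako-3 cells, while the Mko-3 libraries were at the floor and no fold is given. CGAS and IRF5 passed the filter only through the control libraries in which they are high, so their values are a description, and neither was tested between the clones. IRF5, which acts downstream of Toll-like receptors, had 63, 13 and 40 counts in control libraries, 13, 11 and 5 in Ako-3 libraries and 17, 6 and 7 in Mko-3 libraries, and fitted log2FCs of -2.00 and -1.89. The Mko-3 and control libraries of IRF5 overlapped. TLR3, the receptor for double-stranded RNA in endosomes, was at 1.26 to 1.56 CPM in control, 1.07 to 1.57 CPM in Ako-3 and 2.63 to 3.40 CPM in Mko-3 libraries, a rise of 1.13 on the log2 scale in Mko-3 cells (adjusted p = 8.2e-04).

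Of 16 negative regulators, 15 were tested. SAMHD1, which depletes nucleotides and limits interferon induction, was called higher in Ako-3 cells at 1.08 (adjusted p = 1.6e-08), a call lost without control replicate 1, and SOCS3, an inhibitor of JAK signaling, lower in Mko-3 cells at -1.19 (adjusted p = 1.9e-08). No other gene of this list was called against control cells, where 3.52% of all genes were called higher in Ako-3 and 7.22% lower in Mko-3 cells.

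A further 58 interferon-stimulated genes outside the member list gave 45 tested genes in each comparison with control cells. In Ako-3 cells 2 were called higher and 1 lower (median log2FC 0.06), beside 3.52% and 5.00% of all genes tested. In Mko-3 cells 7 were called higher and 2 lower (median log2FC 0.24), beside 3.82% and 7.22% of all genes. The 2 called higher in Ako-3 cells, named after their values were seen, were NLRC5 and PSMB8. NLRC5, which activates MHC class I genes, had 14, 9 and 8 counts in control libraries and 55, 38 and 30 in Ako-3 libraries. It reached the minimum count only through the Ako-3 libraries in which it is high. Its log2FC of 1.94 is thus a description only. PSMB8, a subunit of the immunoproteasome, was at 1.18 (adjusted p = 9.5e-03), or 0.95 without Ako-3 replicate 3 and 0.96 without control replicate 1. Its Ako-3 and control libraries overlapped. PSMB8 was also called higher in Mko-3 cells, at 1.53 (adjusted p = 1.9e-04), without overlap. The 1 called lower in Ako-3 cells was GBP2, a GTPase that interferon gamma induces, at 20.4 to 31.6 CPM in control, 10.4 to 11.4 CPM in Ako-3 and 25.7 to 27.8 CPM in Mko-3 libraries, with a log2FC of -1.35 (adjusted p = 4.9e-07). In Mko-3 cells APOL1, a secreted apolipoprotein that lyses trypanosomes, rose by 2.42 (adjusted p = 5.4e-08), from 0.793 to 1.88 CPM in control libraries to 5.89 to 8.85 CPM. SLFN11, which blocks replication under stress, rose there by 1.91 (adjusted p = 1.2e-07), and LGALS3BP, a secreted glycoprotein, by 1.05 (adjusted p = 3.3e-08), or 0.95 without control replicate 2. HELZ2, a nuclear coactivator, fell by 1.17 in Mko-3 cells (adjusted p = 6.6e-11) and by 0.44 in Ako-3 cells (adjusted p = 8.5e-06). Calls went both ways in each clone, but in Mko-3 cells more of them were upward. Counting every gene of this list past the adjusted p, 19 rose and 8 fell in Mko-3 cells. The shares over all genes tested were 26.9% and 27.1%. The member list did not lean upward in this way, since 8 members rose and 9 fell there. For Ako-3 cells the numbers of this list were 13 and 8, beside 25.5% and 24.4% of all genes.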

How the data were processed

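The submitters' processing notes and the paper's methods name HISAT2 2.0.5 and featureCounts 1.5.0-p3 on hg38. The notes also list GRCh37 and hg19. The authors deposited raw counts per gene and FPKM, which are these counts divided by gene length and a library constant. From the counts, each pair of groups was tested on its 6 libraries with edgeR 4.0.16 (R 4.3.3, limma 3.58.1), using TMM, filterByExpr (minimum count 10), robust quasi-likelihood F tests and Benjamini-Hochberg adjustment over all genes tested. Calls needed a log2 fold change of 1 or more in either direction and an adjusted p of at most 0.05. The SE is the log2 fold change over the square root of F. The fit was tested on simulated counts. Alternatives were DESeq2 1.42.0, RLE factors, no filter, all 9 libraries in 1 fit, a replicate block and leaving out each library. The members, lists and tests were chosen with earlier results of these data known. Members were named with values when called, when past the adjusted p with a log2 fold change of 0.5 or more in size, as regulators, by highest FPKM or as nearest to BST2. Of each pathway list, up to 5 genes called in any comparison were named by adjusted p, as were the genes within 100 kb of BST2. 1 result that the rule names is not reported here. IFNAR1, IFNLR1 and IFNGR2 were chosen after their values were seen. Floors cover counting error only.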

Additional observations from a re-analysis of the deposited data

Results flagged for a closer look

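The clones were compared directly because a call in one and not in the other does not show a difference. The genes named above that differed between Mko-3 and Ako-3 cells past both thresholds are given here, where 2.26% of all genes tested were called higher and 3.47% lower in Mko-3 cells. BST2 was lower in Mko-3 than in Ako-3 cells by a log2 difference of -2.89 (adjusted p = 2.7e-15, edgeR), IFITM2 of -1.45 (adjusted p = 9.0e-15) and IFI35 of -1.05 (adjusted p = 2.2e-11). Higher in Mko-3 cells were IFI6 at 1.14 (adjusted p = 5.4e-08) and OAS1 at 1.11 (adjusted p = 9.9e-21). OAS2 had a fitted value of 3.05, but it passed the filter only through the Mko-3 libraries, against 4, 2 and 0 counts in Ako-3 libraries. From the pathway lists, SLFN11 was higher at 2.79 (adjusted p = 7.6e-18), APOL1 at 1.63 (adjusted p = 2.0e-11), GBP2 at 1.30 (adjusted p = 1.1e-19) and TLR3 at 1.17 (adjusted p = 1.4e-04). NLRC5 was lower in Mko-3 cells at -1.48 (adjusted p = 1.3e-04). BISPR, the neighbour of BST2, had a fitted value of -1.16 (adjusted p = 2.7e-02). It passed the filter only through the Ako-3 libraries, and this was a call that was lost with DESeq2 (adjusted p = 1.3e-01), without the filter on low counts (adjusted p = 6.3e-02) and on leaving out any 1 of the 6 libraries but Ako-3 replicate 2. IFI6 was at 0.96 without Mko-3 replicate 1.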

How the results depend on the processing

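The rise of BST2 in Ako-3 cells and its lower level in Mko-3 than in Ako-3 cells kept their call under DESeq2, RLE factors, no filter, the fit of all 9 libraries, the replicate block and leaving out each library. With a library left out in turn, members called in Ako-3 cells numbered 1 to 2 higher and 2 to 4 lower, and in Mko-3 cells 1 to 3 higher and 1 to 5 lower. The highest counts of lower members, 4 and 5, came without control replicate 2. BST2 in Mko-3 cells ranged from 0.60 to 1.46. BST2 minus the median of the others ranged from 3.91 to 4.44 in Ako-3 cells, 0.65 to 1.5 in Mko-3 cells and -3.37 to -2.81 between the clones. Values near 0 changed sign on leaving out 1 library. In Ako-3 cells these were IFI35 (-0.01 to 0.32), GTPBP3 (-0.01 to 0.07), TLR3 (-0.16 to 0.12), DDX58 (-0.10 to 0.01), DTX3L (-0.10 to 0.11), IFI27 (-0.46 to 0.10) and IFIT2 (-0.31 to 0.14), and in Mko-3 cells DDX60 (-0.60 to 0.01), DTX3L (-0.08 to 0.11), GBP2 (-0.20 to 0.07), IFI6 (-0.03 to 0.40), IFIH1 (-0.09 to 0.45), IFIT1 (-0.12 to 0.24) and ISG15 (-0.13 to 0.07). Between the clones they were IRF9 (-0.24 to 0.13), AC010618.3 (-0.23 to 0.09), IFITM1 (-0.30 to 0.40), PARP9 (-0.01 to 0.14), DTX3L (-0.05 to 0.06), IFI27 (-0.48 to 0.09) and IFIT3 (-0.04 to 0.28). DTX3L was also at 0.01 without the filter in Ako-3 cells, and in Mko-3 cells at 0.01 with DESeq2, 0.03 without the filter, 0.01 in the fit of all 9 libraries and 0.0 with RLE factors and with the replicate block. The cause was not tested. The fit of all 9 libraries, which tests more genes, called OAS2 lower in Ako-3 cells (-1.84, adjusted p = 3.8e-02). OAS2 passed the filter there only through the Mko-3 libraries and was hardly read in the groups compared, so this call is no support.

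Same-numbered libraries did not deviate together (correlations of -0.07 to 0.07), so the numbers do not pair the libraries. The replicate block gave log2 fold changes of BST2 of 3.93 and 1.05 in Ako-3 and Mko-3 cells and -2.9 between the clones, and called 1336, 1730 and 899 genes against 1345, 1739 and 890 without it. BISPR, OAS2 and BST2 in control and Mko-3 cells rest on few counts, which limits what depth can show for them.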
